A study of Mus musculus with 105 samples.

Results

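Hsd3b5, Cyp4a12a, Cyp4a12b, Elovl3, Susd4, Moxd1 and Nnmt are genes of mouse liver that are known to depend on the male, pulsatile pattern of growth hormone. They were taken by gene symbol from the deposited expression table, and all 7 were among its 12966 genes. Their RNA was followed in liver after diethylnitrosamine (DEN), a carcinogen of the liver, in mice with or without the loss of 1 of 4 proteins, a loss that the study's title places in hepatocytes.

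In male rodents growth hormone is released in pulses, and each pulse activates the receptor-bound kinase JAK2 and the transcription factor STAT5B in hepatocytes. In females the release is more continuous, and a different set of liver genes is expressed. The genes described here belong to the male side of that difference or are known to respond to it. Hsd3b5 encodes a member of the 3β-hydroxysteroid dehydrogenase family that works as a 3-ketosteroid reductase. Cyp4a12a and Cyp4a12b encode cytochromes P450 that hydroxylate fatty acids, among them arachidonic acid, at the omega end. Elovl3 encodes an elongase of very long chain fatty acids, and Susd4 encodes a membrane protein with sushi domains that restrains complement. Moxd1 encodes a monooxygenase related to dopamine β-hydroxylase, and Nnmt encodes nicotinamide N-methyltransferase, which uses S-adenosylmethionine to methylate nicotinamide.

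The labels give 84 non-tumour and 21 tumour libraries in 30 groups, and every mouse, WT included, had received DEN. In sequencing group 1 the genotypes were IKO (labelled Ikk KO; Ikbkb was read as its gene), SKO (labelled Shp2 KO; the gene is Ptpn11) and WT, with 4 libraries per group. In sequencing group 2 they were BKO (labelled beta catenin KO; the gene is Ctnnb1), MKO (labelled cMet KO; the gene is Met) and another set of WT, with 3 libraries per group. Livers came from ages of 1, 3, 5 and 8 months for all genotypes, with tumours as a group of their own at the last age. Non-tumour liver of each genotype therefore had 16 libraries in sequencing group 1 and 12 in sequencing group 2. Sex, strain, the Cre driver and the DEN dose are not given in the labels used here. Libraries are numbered as biological replicates, but nothing says that they came from separate animals, so p-values measure the spread between libraries. That spread was estimated for each gene over all groups of a sequencing group, tumours included. Calls at a single stage, and misses there, therefore also depend on the spread in groups outside the comparison.

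Depth ranged from 4676444 to 20231121 reads per library (median 8353515). Alb, the hepatocyte product albumin, had reads in every library, as did the Y-linked genes Ddx3y, Eif2s3y, Kdm5d and Uty. Levels below are normalised reads, that is, reads recovered from the deposited values and divided by the size factor of the library. A count of 3 reads corresponded to 1.38 to 5.58 normalised reads, depending on the library. Differences are log2 differences ± SE on the deposited scale, which compresses low values, and called means an adjusted p under 0.05 (limma, Benjamini-Hochberg over all genes). Ptpn11 ranged from 107 to 375 normalised reads in SKO non-tumour liver (median 159), against 292 to 433 in WT (median 366). The value of 375 came from the library labelled SKO 3 months replicate 2, which lay within the WT range while the next highest SKO library had 197, so results that rest on it are also given without it. Met ran from 147 to 259 in MKO (median 182), against 188 to 273 in WT (median 250.3). Ikbkb ran from 185 to 383 in IKO (median 275), against 275 to 478 in WT (median 338), so the ranges of both genes overlapped. Ctnnb1 did not separate BKO (median 118) from WT (122). Values per gene cannot show whether a part of it was deleted, so this is no check of the label, and the reason was not tested.

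The 7 genes lie on 6 chromosomes of GRCm38 (GENCODE M21): Susd4 at chr1:182763860-182896591 on the plus strand, Hsd3b5 at chr3:98618634-98630252 on the minus strand, Cyp4a12a at chr4:115299046-115332815 and Cyp4a12b at chr4:115411624-115439034 on the plus strand, Nnmt at chr9:48591877-48605153 on the minus strand, Moxd1 at chr10:24223517-24302790 and Elovl3 at chr19:46131897-46135694 on the plus strand. All are annotated as protein coding. The transcripts of Cyp4a12a and Cyp4a12b were 98.3% identical over 2394 aligned bases, with 41 mismatches, and 51.4% of the windows of 50 bases in the last 300 bases of Cyp4a12a also occurred in Cyp4a12b. Reads of this pair may therefore have been split between the genes or left out by the counting, and their values are not independent of each other.

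RefSeq promoters of GRCm38.p6, running from 250 bases before to 50 bases after a start site, were given for 3 of the 7 genes. They are shown for Hsd3b5 and Susd4, which fell together in SKO and BKO liver, and for Moxd1, which rose between 5 and 8 months in WT of sequencing group 1. The core STAT motif TTCNNNGAA and the TCF motif CTTTGAT were searched on both strands, and a match is printed in capitals.
Hsd3b5 (chr3:98645485-98645784, minus strand): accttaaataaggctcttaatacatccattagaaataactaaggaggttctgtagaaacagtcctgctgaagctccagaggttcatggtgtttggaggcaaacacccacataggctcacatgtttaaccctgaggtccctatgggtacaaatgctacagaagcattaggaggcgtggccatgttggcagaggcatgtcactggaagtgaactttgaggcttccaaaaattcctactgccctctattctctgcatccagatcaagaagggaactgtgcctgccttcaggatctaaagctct
Susd4 (chr1:182763966-182764265, plus strand): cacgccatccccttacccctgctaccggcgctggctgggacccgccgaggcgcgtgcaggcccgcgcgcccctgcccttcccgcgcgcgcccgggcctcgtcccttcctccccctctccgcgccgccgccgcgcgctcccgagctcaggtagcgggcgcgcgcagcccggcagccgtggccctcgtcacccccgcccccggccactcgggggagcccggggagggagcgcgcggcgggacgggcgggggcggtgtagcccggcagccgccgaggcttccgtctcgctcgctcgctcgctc
Moxd1 (chr10:24223267-24223566, plus strand): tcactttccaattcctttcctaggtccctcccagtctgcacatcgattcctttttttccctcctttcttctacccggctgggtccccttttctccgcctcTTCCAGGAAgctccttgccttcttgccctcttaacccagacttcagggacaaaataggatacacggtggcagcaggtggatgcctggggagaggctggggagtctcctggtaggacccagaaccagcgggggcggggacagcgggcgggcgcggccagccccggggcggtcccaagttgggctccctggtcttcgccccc
Moxd1 held 1 match to TTCNNNGAA, starting 150 bases before the start site. That motif occurred in 8.3% of 32851 promoters of the same length, and CTTTGAT, in 3.73% of them, occurred in none of those given for the 7 genes. The RefSeq start of Hsd3b5 lies 15.3 kb from the GENCODE start, and Susd4 has a further RefSeq start at chr1:182764646-182764945 with neither motif. Matches describe these windows only.

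In non-tumour liver, Hsd3b5 and Susd4 were lower in SKO and in BKO than in WT, the Cyp4a12 pair was higher in SKO, and Elovl3 was lower in BKO. Over the 4 non-tumour stages taken with equal weight, 4 of 7 genes were called in SKO, where 22.9% of all genes were called, and 3 of 7 in BKO, where 19.6% of all genes were called. None of the 7 was called in IKO (9.04% of all genes) or in MKO (2.71%). The median of the 7 log2 differences was 0.17 in SKO, -0.82 in BKO, -0.07 in IKO and 0.08 in MKO, beside a median over all genes of 0.00 to 0.01. Near 0 in SKO, the median joins 2 genes that rose and 2 that fell. In bulk liver, fewer cells of a type and less RNA per cell cannot be told apart.

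**Figure D1:**
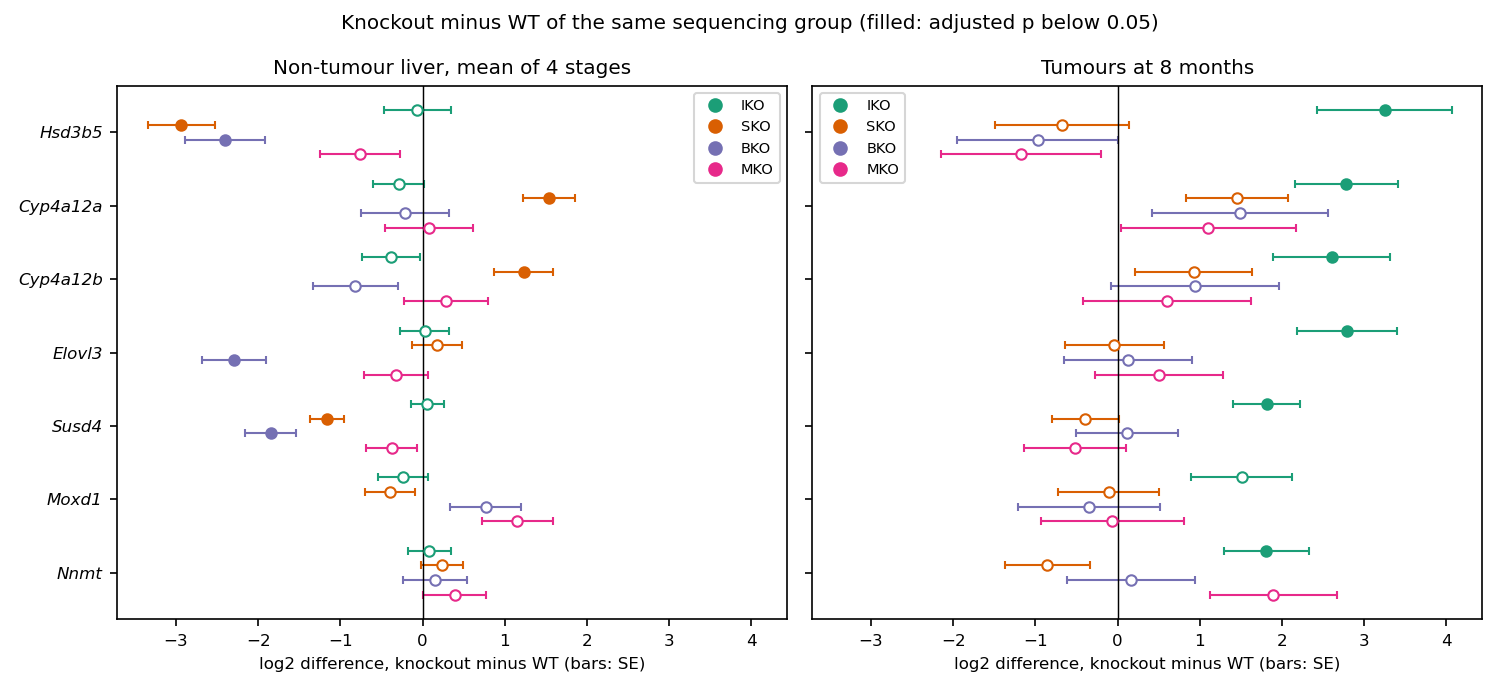
Log2 difference of each knockout from WT of the same sequencing group, with SE as bars, in non-tumour liver over 4 stages (left) and in tumours at 8 months (right). Filled symbols passed an adjusted p of 0.05. Hsd3b5 and Susd4 lie to the left of 0 for SKO and BKO in non-tumour liver, the Cyp4a12 genes to the right for SKO, and all 7 genes to the right for IKO tumours, 6 of them filled.

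Hsd3b5 had the largest fall of the 7 genes in SKO. Its level in SKO non-tumour liver ran from 12.9 to 2007 normalised reads (median 128), against 804 to 2194 (median 1653) in WT. The difference was -2.93 ± 0.41 (adjusted p = 1.85e-07), or -3.17 ± 0.39 without the library labelled SKO 3 months replicate 2, which held the value of 2007. At 1 month the SKO libraries had 14.6, 83.7, 104.7 and 245 normalised reads, against 2102, 1607, 2002 and 2194 in WT. Every SKO library was below every WT library there, and the difference was -4.17 ± 0.82 (adjusted p = 0.000235). At 3 months SKO had 72.5, 2007, 234 and 114, against 1809, 1698, 1138 and 819.7 in WT. The groups overlapped through the doubted library alone, and the difference was -2.18 ± 0.82 (adjusted p = 0.113) with it and -3.11 ± 0.82 (adjusted p = 0.0121) without it. At 5 months SKO had 107, 142, 490.2 and 220.1, against 1453, 1253, 804 and 1133 in WT, and none of the SKO libraries reached WT, but the difference of -2.32 ± 0.82 missed the threshold (adjusted p = 0.0745). In non-tumour liver at 8 months SKO had 12.9, 37.4, 904 and 891, against 2147, 1902, 2007 and 1052 in WT. The SKO libraries were far apart from each other and all were below WT, with a difference of -3.06 ± 0.82 (adjusted p = 0.0177), which missed the threshold without either of the lowest SKO libraries or without WT replicate 1 or 3 (adjusted p from 0.0536 to 0.156). The interaction of SKO with stage was not called for Hsd3b5 (adjusted p = 0.533).

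In BKO non-tumour liver Hsd3b5 ran from 11.7 to 1304 normalised reads (median 517), against 1069 to 3311 (median 2247) in WT. The difference was -2.40 ± 0.49 (adjusted p = 0.000495). At 5 months BKO had 19.7, 434 and 11.7, against 1332, 1069 and 1771 in WT. A pair of BKO libraries lay far below the remaining one and all lay below WT, with a difference of -3.98 ± 0.97 (adjusted p = 0.0113) that rested on replicates 1 and 3, since leaving out either gave an adjusted p of 0.0722 or 0.089. The summed level of 17 acute phase genes in the same order was 494627, 364080 and 398341 normalised reads in BKO, against 181813, 201602 and 214922 in WT. That of the hepatocyte markers was 1271580, 1631180 and 1068850 in BKO, against 1264190, 1326410 and 1179910 in WT, and the part of either in the result was not tested. At 1 month BKO had 600.3, 890.1 and 277, against 2046, 2988 and 3311 in WT. At 8 months BKO non-tumour liver had 229, 1046 and 379, against 2335, 2159.7 and 2464 in WT. Neither of these was called alone (-2.30 ± 0.97 and -2.28 ± 0.97), although the groups did not overlap. At 3 months BKO had 996, 807 and 1304, against 3128, 2623 and 1168 in WT, which overlapped.

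IKO and MKO did not move Hsd3b5 past the threshold in non-tumour liver. IKO ran from 12.7 to 3137 (median 2059), with a difference of -0.07 ± 0.41 from WT (95% interval -0.87 to 0.73). The lowest value was IKO 5 months replicate 1, where the 4 libraries had 12.7, 408, 3137 and 1650.5, against 1453, 1253, 804 and 1133 in WT. That library had a summed acute phase level of 495659, against 206455 to 284415 in WT at 5 months. Without it the Hsd3b5 difference over all stages was 0.26 ± 0.35. MKO ran from 134 to 3297 (median 2161), with a difference of -0.77 ± 0.49 (adjusted p = 0.431). At 1 month MKO had 2648, 134 and 272, against 2046, 2988 and 3311 in WT, and at 8 months MKO non-tumour liver had 2142, 201 and 486, against 2335, 2159.7 and 2464 in WT. At both stages 1 MKO library was near WT and the rest were far below it. At 3 and 5 months all MKO libraries were between 2108 and 3297. Set against each other directly, Hsd3b5 was lower in SKO than in IKO (-2.87 ± 0.41, adjusted p = 2.73e-07, 22.1% of all genes called) and lower in BKO than in MKO (-1.63 ± 0.49, adjusted p = 0.0186, 15% called). The BKO difference from MKO missed the threshold without MKO 1 month replicate 1 (-1.33, adjusted p = 0.0515).

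**Figure D2:**
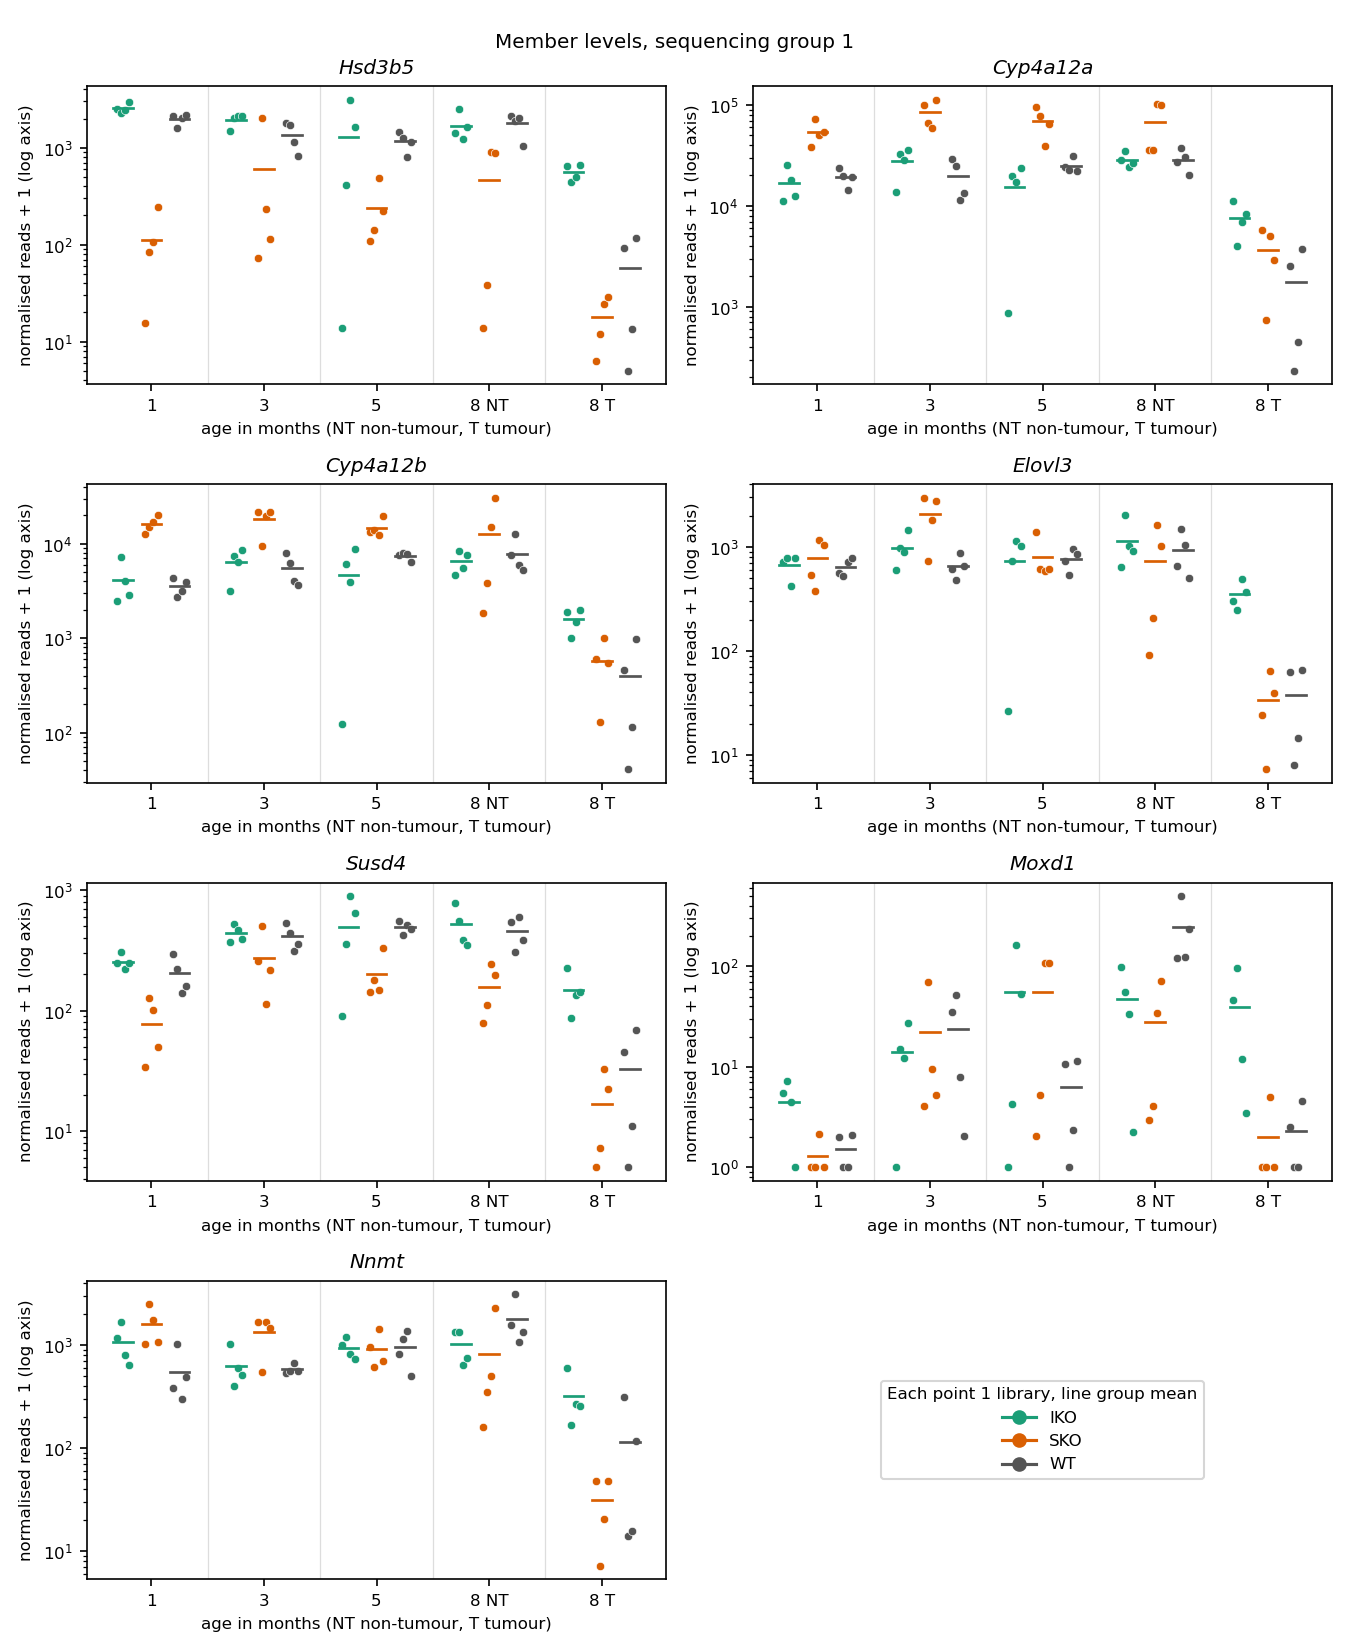
Normalised reads plus 1 (log axis) of the 7 genes in each library of sequencing group 1, by genotype and stage; points are libraries and short lines group means. SKO non-tumour libraries lie low for Hsd3b5 and high for Cyp4a12a, and the SKO and WT tumour libraries lie below their non-tumour libraries at 8 months for most genes, with IKO tumours above WT tumours for Hsd3b5, Elovl3, Susd4 and the Cyp4a12 pair.

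The omega-hydroxylases went the opposite way in SKO. Cyp4a12a ran from 35639.5 to 113119 normalised reads in SKO non-tumour liver (median 66029.9), against 11433 to 37105 (median 23107) in WT. The difference was 1.54 ± 0.31 (adjusted p = 0.000182), a 2.9-fold rise on the deposited scale. Without the library labelled SKO 3 months replicate 2 it was 1.56 ± 0.32 (adjusted p = 0.000196). At 1 month SKO had 38719.6, 73074, 50771 and 53922, against 23638, 19631, 14436 and 19530.1 in WT, and at 3 months SKO had 99956, 66599, 59790.2 and 113119, against 28881, 24663, 11433 and 13543 in WT. At both ages every SKO library exceeded every WT library. The difference was 1.47 ± 0.63 (adjusted p = 0.102) at 1 month and 2.17 ± 0.63 (adjusted p = 0.0307) at 3 months. The call at 3 months was lost without SKO replicate 1, 3 or 4 or WT replicate 3 or 4 (adjusted p up to 0.123) and held without the library labelled SKO 3 months replicate 2 (2.27 ± 0.68, adjusted p = 0.0292). At 5 months SKO had 96099, 78240.0, 39605 and 65461, against 24499, 22575, 31088 and 22048 in WT, again without overlap (1.42 ± 0.63, adjusted p = 0.173). At 8 months SKO non-tumour liver had 35639.5, 36096, 101504 and 100529, against 27301, 37105, 30503 and 20303 in WT. The pair of SKO libraries lowest for Hsd3b5 was also lowest for Cyp4a12a there and overlapped WT (1.10 ± 0.63, adjusted p = 0.352).

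Cyp4a12b ran from 1843 to 30763 normalised reads in SKO non-tumour liver (median 15075), against 2756 to 12571 (median 6088) in WT, a difference of 1.23 ± 0.35 (adjusted p = 0.00825). At 1 month SKO had 12656, 15169, 17219 and 20336, against 4333, 2756, 3187 and 3958 in WT. All SKO libraries were above all WT libraries, with a difference of 2.19 ± 0.71 (adjusted p = 0.0264), which missed the threshold without SKO replicate 3 or 4 or WT replicate 2 or 3 (adjusted p up to 0.0754). At 3 months SKO ran from 9555 to 21952, against 3659 to 7970 in WT. At 5 months it ran from 12267 to 19541, against 6346 to 8042 in WT. Both stages were higher in SKO without overlap, as were 5.02% and 5.72% of all genes, but neither was called. At 8 months SKO non-tumour liver had 1843, 3841, 14981 and 30763, against 7699, 12571, 5910.1 and 5266 in WT. The SKO libraries lay on both sides of WT, and the difference was 0.03 ± 0.71. The interaction with stage was not called for Cyp4a12a (adjusted p = 0.813) or Cyp4a12b (adjusted p = 0.388). Both genes were also higher in SKO than in IKO (1.83 ± 0.31 and 1.61 ± 0.35, adjusted p = 1.11e-05 and 0.000524).

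In BKO, Cyp4a12a ran from 5654 to 25409 normalised reads (median 13510.0), against 7999.9 to 29655 (median 17311) in WT, with a difference of -0.22 ± 0.53 (95% interval -1.26 to 0.83). Cyp4a12b ran from 1184 to 5302 (median 2713) in BKO, against 1224 to 9642 (median 4633) in WT, with a difference of -0.82 ± 0.51 (adjusted p = 0.276), which was called when only BKO and WT were fitted (adjusted p = 0.00912). Without overlap, Cyp4a12a was lower in BKO at 8 months (10.6% of all genes) and Cyp4a12b at 3 months (9.46%). Neither was called at that stage. In IKO the differences were -0.29 ± 0.31 and -0.38 ± 0.35, and in MKO 0.08 ± 0.53 and 0.28 ± 0.51, none of them called. IKO 5 months replicate 1 had 858 normalised reads of Cyp4a12a and 123 of Cyp4a12b, and MKO 8 months replicate 2 of the non-tumour group had 1966 and 805. Each was the lowest non-tumour library of its genotype for both genes.

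Elovl3 was the one gene of the 7 whose BKO non-tumour libraries were all below the WT non-tumour libraries over all stages, as were 0.301% of all genes. It ran from 20.3 to 167 normalised reads in BKO non-tumour liver (median 57.2), against 175 to 590.5 (median 408) in WT, so that no BKO library reached a WT library. The difference was -2.30 ± 0.39 (adjusted p = 4.88e-05). BKO had 59.5, 89.7 and 20.3 at 1 month, against 175, 329.6 and 470.2 in WT, and 64.4, 39.4 and 24.0 at 3 months, against 333, 250.4 and 404 in WT. BKO had 95.3, 37.8 and 55.0 at 5 months, against 344, 533 and 431 in WT, and 32.4, 167 and 107 at 8 months, against 412, 590.5 and 533 in WT. The differences at single stages lay between -2.42 and -2.12 and none was called alone (lowest adjusted p = 0.0535, at 5 months). Elovl3 was also lower in BKO than in MKO (-1.97 ± 0.39, adjusted p = 0.000404). In SKO it ran from 90.2 to 2966 (median 875), against 475 to 1498 (median 685) in WT, with a difference of 0.17 ± 0.30 (95% interval -0.42 to 0.76). At 3 months SKO had 2966, 728, 1806 and 2793, against 607, 475, 878 and 654 in WT, and at 8 months SKO non-tumour liver had 90.2, 206, 1607 and 1021, against 660.1, 1498, 1053 and 499 in WT. The SKO values were above most WT values at the earlier age and on both sides of them at the later one, and neither stage was called (1.47 ± 0.60 and -0.92 ± 0.60). Without the library labelled SKO 3 months replicate 2, which held the value of 728, the difference at 3 months was 1.90 ± 0.64 (adjusted p = 0.0535).

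**Figure D3:**
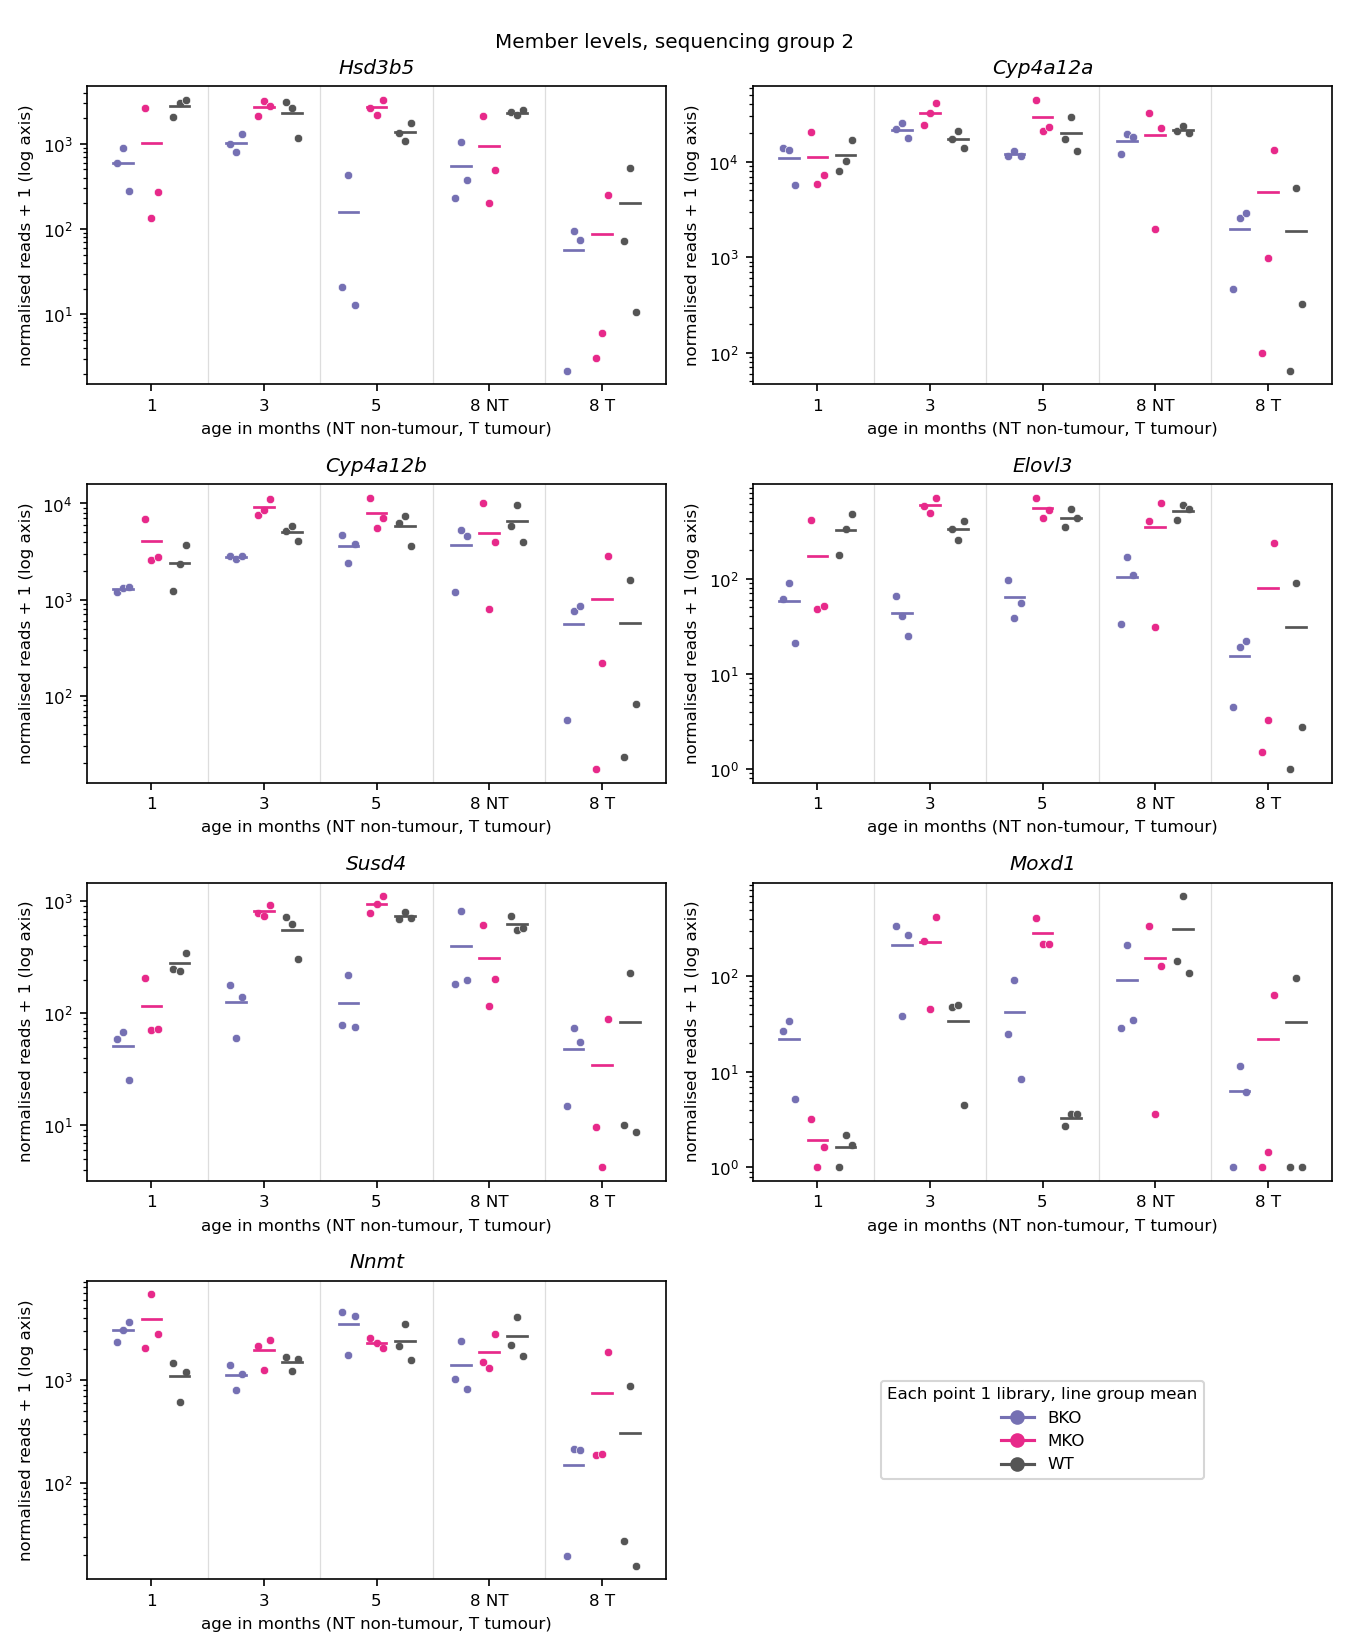
Normalised reads plus 1 (log axis) of the 7 genes in each library of sequencing group 2, by genotype and stage; points are libraries and short lines group means. BKO non-tumour libraries lie below WT for Elovl3 at every stage, and the single MKO tumour and WT tumour libraries with high values stand above their groups.

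Susd4 followed Hsd3b5 in direction in SKO and BKO with a smaller difference. It ran from 32.8 to 507 normalised reads in SKO non-tumour liver (median 144), against 138 to 598 (median 407) in WT, a difference of -1.16 ± 0.20 (adjusted p = 1.87e-05), or -1.24 ± 0.20 without the library labelled SKO 3 months replicate 2, which held the value of 507. At 1 month SKO had 32.8, 125, 100.2 and 48.4, against 294, 219, 138 and 160.0 in WT. At 8 months SKO non-tumour liver had 77.3, 110.0, 242 and 197, against 544, 307, 598 and 387 in WT. No SKO library reached a WT library at either age, and both were called (-1.22 ± 0.41, adjusted p = 0.0312, and -1.46 ± 0.41, adjusted p = 0.0236), although the call at 1 month was lost without SKO replicate 1 or 4 or WT replicate 1 or 2, and that at 8 months without SKO replicate 1 or 2 or WT replicate 1 or 3 (highest adjusted p = 0.127 at both ages). At 5 months SKO had 141, 178, 148 and 333, against 558, 426, 515 and 477 in WT, with an adjusted p at the threshold (-1.27 ± 0.41, adjusted p = 0.05). In BKO it ran from 24.5 to 815 (median 108), against 239.7 to 805 (median 606) in WT, a difference of -1.85 ± 0.31 (adjusted p = 4.3e-05). At 1 month BKO had 57.5, 67.5 and 24.5, against 249, 239.7 and 348 in WT, and at 5 months BKO had 77.7, 217 and 74.2, against 694, 805 and 713 in WT. Both stages were called (-2.06 ± 0.62, adjusted p = 0.0488, and -2.48 ± 0.62, adjusted p = 0.0132), the first only with all 6 libraries in the fit (adjusted p up to 0.172 without 1 of them) and not with the replicate block in that fit (adjusted p = 0.0545) or by limma-voom (adjusted p = 0.062). The second was not called without BKO replicate 1 or 3 (adjusted p = 0.0666 and 0.0726). At 8 months the BKO non-tumour libraries had 181, 815 and 199, against 734, 556 and 581 in WT, and replicate 2 lay above WT (-0.92 ± 0.62, adjusted p = 0.405). Susd4 was lower in SKO than in IKO (-1.22 ± 0.20, adjusted p = 7.53e-06) and lower in BKO than in MKO (-1.47 ± 0.31, adjusted p = 0.000883).

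Moxd1 had few reads at 1 month and many in some libraries later. At 1 month SKO had 0, 0, 1.13 and 0 normalised reads, IKO 4.44, 6.18, 3.43 and 0, and WT of sequencing group 1 0.990, 0, 0 and 1.10. In sequencing group 2 BKO had 25.9, 33.2 and 4.19 at 1 month and MKO 2.22, 0 and 0.641, against 0, 1.20 and 0.729 in WT. SKO and both WT sets were at or under the level of 3 reads at that age, so no fold is given for them. At 8 months SKO non-tumour liver had 1.98, 3.11, 33.0 and 70.5, against 120.3, 501, 122 and 236 in WT. Every SKO library was below every WT library, and the difference was -2.55 ± 0.61 (adjusted p = 0.00842), or -2.23 (adjusted p = 0.0539) without SKO replicate 1. IKO non-tumour liver at 8 months had 97.7, 54.1, 32.6 and 1.26, also below all WT libraries as were 2% of all genes, and its difference missed the threshold (-2.03 ± 0.61, adjusted p = 0.266). At 5 months SKO had 1.05, 4.25, 107 and 108, against 9.59, 0, 1.34 and 10.5 in WT, which overlapped. The SKO difference from WT differed between stages for Moxd1 (interaction, adjusted p = 0.0255, with 5.68% of all genes called), a call that limma-voom on the recovered reads did not make (adjusted p = 0.628). It was also lost without SKO 5 months replicate 3, SKO 8 months non-tumour replicate 1 or 2, or WT 8 months non-tumour replicate 2 (adjusted p from 0.0551 to 0.0711). At 5 months MKO had 404, 219.7 and 217, against 1.69, 2.66 and 2.62 in WT. The groups were far apart there (8.74% of all genes were higher in MKO without overlap), but the difference of 3.81 ± 0.87 missed the threshold (adjusted p = 0.0819). BKO at 5 months had 23.8, 91.4 and 7.47, also above all WT libraries, as held for 14.5% of all genes, and was not called. Over all non-tumour stages Moxd1 was not called in any knockout, with differences of -0.39 ± 0.31 in SKO, -0.24 ± 0.31 in IKO, 0.77 ± 0.43 in BKO and 1.15 ± 0.43 in MKO.

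Nnmt was not called over all non-tumour stages in any knockout. It ran from 161 to 2496 normalised reads in SKO (median 1058), against 303 to 3124 (median 746) in WT, a difference of 0.24 ± 0.26. The SKO difference from WT differed between stages (interaction, adjusted p = 0.0182, with 5.68% of all genes called), but not without SKO 8 months non-tumour replicate 1 (adjusted p = 0.063). At 1 month SKO had 1028, 2496, 1755 and 1088, against 381, 1030.1, 303 and 495 in WT. All but 1 of the SKO libraries were above all WT libraries, and Nnmt was higher in SKO (1.54 ± 0.52, adjusted p = 0.0346), a call that was lost without SKO replicate 2 or 3 or WT replicate 1, 3 or 4 (adjusted p up to 0.125). At 3 months SKO had 1676, 551, 1688 and 1463, against 540.3, 562, 668 and 562 in WT, with the library labelled SKO 3 months replicate 2 at the WT level. The difference was 1.05 ± 0.52 (adjusted p = 0.263) with it and 1.42 ± 0.55 (adjusted p = 0.104) without it. At 8 months SKO non-tumour liver had 161, 351, 501 and 2295, against 1581, 3124, 1071 and 1341 in WT, with 1 SKO library within the WT range and a difference of -1.61 ± 0.52 (adjusted p = 0.0577). In BKO Nnmt ran from 804 to 4573 (median 2047), against 611 to 4087 (median 1652) in WT (0.15 ± 0.39), and in MKO from 1249 to 6819.8 (median 2213; 0.39 ± 0.39). At 1 month BKO had 2352, 3094 and 3697, against 1471, 611 and 1203 in WT. Every BKO library was above every WT library there, as held for 15% of all genes, but Nnmt was not called. Mean levels in BKO were also higher at 5 months (3514 against 2422) but lower at 3 months (1121 against 1509) and 8 months (1420 against 2674). IKO ran from 398 to 1699.7 (median 814), with a difference of 0.08 ± 0.26.

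With all groups of a sequencing group in the fit, the 7 genes gave calls at single stages in SKO and BKO only. In SKO, 4 were called at 1 month (Hsd3b5, Susd4, Cyp4a12b and Nnmt, 16.1% of all genes), 1 at 3 months (Cyp4a12a, 5.19%), none at 5 months (6.02%) and 3 at 8 months (Hsd3b5, Susd4 and Moxd1, 5.03%). In BKO, 1 was called at 1 month (Susd4, 4.37%), none at 3 months (1.54%), 2 at 5 months (Hsd3b5 and Susd4, 6.44%) and none at 8 months (4.91%). In IKO (9.17%, 0.201%, 1.45% and 0.201% of all genes at 1, 3, 5 and 8 months) and in MKO (0.185%, 0.0231%, 0.0463% and 5.74%) none of the 7 was called. Separation without overlap was common among all genes: at 1, 3, 5 and 8 months 9.39%, 3.85%, 7.65% and 5.83% of genes were lower and 11.7%, 5.02%, 5.72% and 5.4% higher in SKO non-tumour liver, and 12.9%, 9.46%, 12.5% and 10.6% were lower in BKO. At the same ages 15%, 11.6%, 14.5% and 12.9% of all genes were higher in BKO without overlap. Nnmt at 1 month and Moxd1 at 1 and 5 months were among these, and neither was called. In MKO without overlap, Susd4 was below WT (8.94% of all genes) and Nnmt above it (8.77%) at 1 month, Cyp4a12a, Cyp4a12b, Elovl3 and Susd4 were above WT at 3 months (8.11%), and Hsd3b5 was above WT at 5 months (8.74%) and below WT at 8 months (10.9%). None of these passed the test. In the interaction with stage none was called in IKO (0.0694%), BKO (0.663%) or MKO (0.339%).

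Tumours had less RNA of these genes than non-tumour liver of the same age. In WT, all 7 fell in both sequencing groups, and no tumour library reached a non-tumour library for any of them. Of all genes tested in sequencing group 1, 42.1% were called, 19.2% were called lower and 16.7% were lower without overlap. In sequencing group 2 these shares of all genes were 27.1%, 12% and 16.4%. The median of the 7 differences was -4.20 in sequencing group 1 and -4.30 in sequencing group 2, beside 0.04 and 0.02 over all genes. Hsd3b5 had 90.5, 4.0, 12.4 and 117 normalised reads in WT tumours of sequencing group 1, against 2147, 1902, 2007 and 1052 in WT non-tumour liver, a difference of -4.83 ± 0.82 (adjusted p = 2.87e-06). In sequencing group 2 it had 71.2, 525 and 9.56 in WT tumours, against 2335, 2159.7 and 2464 in WT non-tumour liver (-4.30 ± 0.97, adjusted p = 0.00102). Tumour levels varied widely between libraries, and replicate 2 of sequencing group 2 was the highest of its group for all 7 genes. Cyp4a12a had 2526, 231, 444 and 3768 in WT tumours, against 27301, 37105, 30503 and 20303 in WT non-tumour liver (-4.76 ± 0.63, adjusted p = 1.4e-08), and in sequencing group 2 it had 63.5, 5311 and 323 in WT tumours, against 20774, 23788 and 20092 in WT non-tumour liver (-5.29 ± 1.07, adjusted p = 0.00029). In sequencing groups 1 and 2, Cyp4a12b differed by -4.85 ± 0.71 and -4.94 ± 1.02, and Elovl3 by -4.04 ± 0.60 and -4.06 ± 0.78. Elovl3 reached 0 reads in 1 WT tumour, where the group had 0, 88.9 and 1.79, against 412, 590.5 and 533 in non-tumour liver. Susd4 differed by -3.32 ± 0.41 and -3.39 ± 0.62, Moxd1 by -3.75 ± 0.61 and -3.13 ± 0.87, and Nnmt by -4.20 ± 0.52 and -4.39 ± 0.77. The Moxd1 call in sequencing group 2 was lost without WT non-tumour replicate 2 or WT tumour replicate 3 (adjusted p = 0.0616 and 0.0504).

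**Figure D4:**
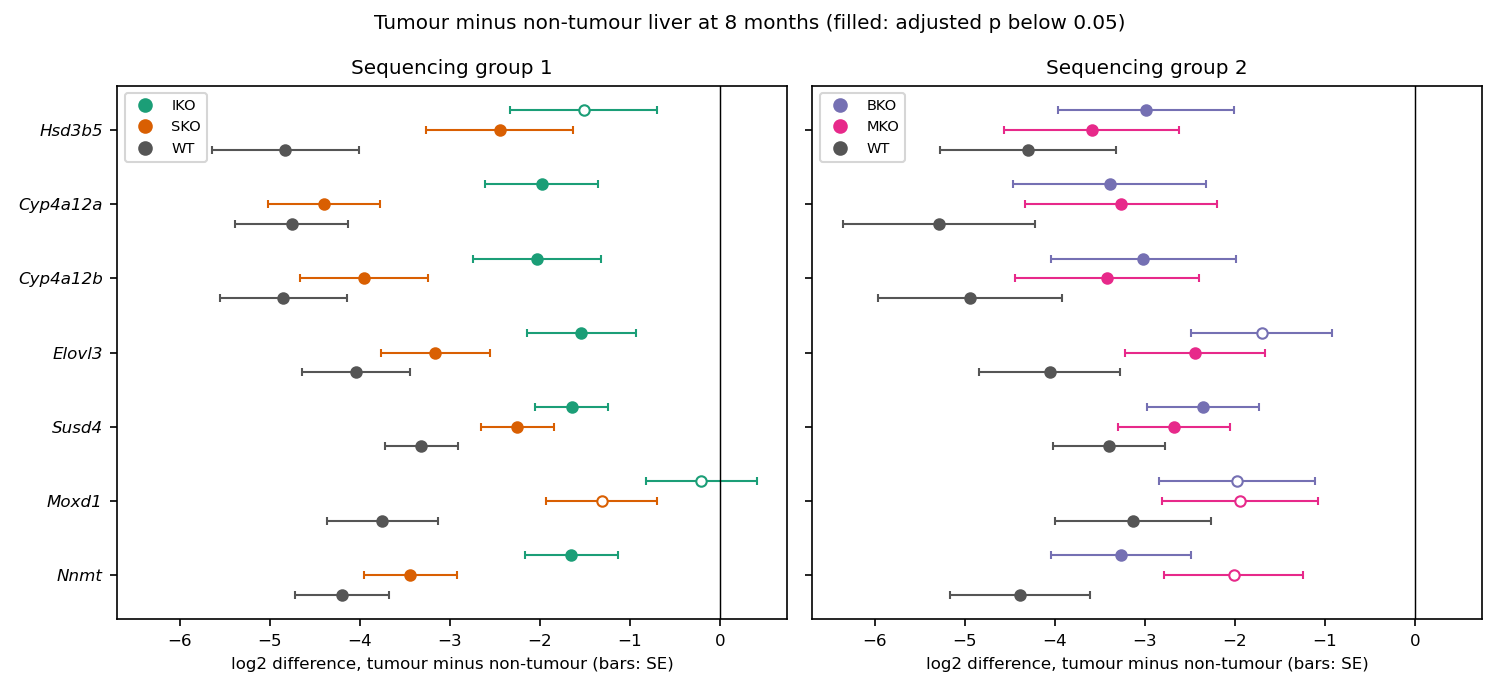
Log2 difference of tumours from non-tumour liver at 8 months for each genotype and sequencing group, with SE as bars; filled symbols passed an adjusted p of 0.05. All values lie to the left of 0, with WT farthest for all 7 genes in both sequencing groups and IKO nearest to 0 in sequencing group 1; the difference between knockout and WT in this fall was called for none of them.

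In the knockouts the fall was called for 5 of 7 genes in IKO (33.3% of all genes called, 15.1% lower), 6 in SKO (39.7%, 18.7% lower), 5 in BKO (14.7%, 6.32% lower) and 5 in MKO (17.3%, 7.56% lower). In SKO the difference was -4.40 ± 0.63 for Cyp4a12a, where tumours had 5769, 739, 5049 and 2919 normalised reads, against 35639.5, 36096, 101504 and 100529 in SKO non-tumour liver (adjusted p = 1e-07). Hsd3b5 had 5.39, 11, 23.7 and 27.7 in SKO tumours, against 12.9, 37.4, 904 and 891 in SKO non-tumour liver. The lowest non-tumour library lay within the range of the tumours, and the difference was -2.44 ± 0.82 (adjusted p = 0.0135), or -1.73 without either of the higher non-tumour libraries (adjusted p = 0.113 and 0.102). Moxd1 was not called in SKO (-1.31 ± 0.61, adjusted p = 0.0837).

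In BKO, tumour and non-tumour libraries of the same replicate number had correlations of 0.23 to 0.33 and were taken as pairs, which the labels do not state. The rule for pairs used these same values. The other groups that met it, MKO and WT non-tumour liver at 8 months, differ in genotype, so the rule cannot show that libraries share an animal. Results with the block hold only under that reading. Hsd3b5 had 1.16, 93.7 and 72.5 in BKO tumours, against 229, 1046 and 379 in BKO non-tumour liver, in the same replicate order. Each tumour library was below the non-tumour library of the same number, and the difference was -2.99 ± 0.97 (adjusted p = 0.0335). All 7 genes were lower without overlap, as were 11.7% of all genes. With the replicate number as a block in the same fit 5 genes were called too (14.8% of all genes), and with the block in a fit of the BKO groups alone all 7 were called (adjusted p from 0.00567 to 0.0137, 8.81% of all genes). Without the block that smaller fit called 0 of 7, and leaving out BKO tumour replicate 1 from the main comparison also left 0, non-tumour replicate 2 left 1 and replicate 3 left 2. In MKO Hsd3b5 had 2.03, 5.07 and 249 in tumours, against 2142, 201 and 486 in MKO non-tumour liver (-3.59 ± 0.97, adjusted p = 0.00937). Tumour replicate 3 was far above the other tumours for all 7 genes, and without it all 7 were called. Only 1 was called without tumour replicate 1, tumour replicate 2 or non-tumour replicate 1, and 2 without non-tumour replicate 3.

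IKO tumours had more RNA of these genes than WT tumours. Of the 7 genes, 6 were higher in IKO tumours, where 3.6% of all genes were called and 2.48% were higher. When only the IKO and WT tumours were fitted, 2 of the 7 were called, Hsd3b5 (adjusted p = 0.0435) and Elovl3 (adjusted p = 0.0289). The median of the 7 differences was 2.61, beside -0.01 over all genes. Hsd3b5 had 644, 442, 498 and 666 normalised reads in IKO tumours, against 90.5, 4.0, 12.4 and 117 in WT tumours, a difference of 3.25 ± 0.82 (adjusted p = 0.0136; limma-voom gave 4.49 with an adjusted p of 0.0765). Elovl3 had 298, 249, 495 and 369.8 in IKO tumours, against 61.4, 7.01, 13.6 and 63.9 in WT tumours (2.79 ± 0.60, adjusted p = 0.00311). Every IKO tumour exceeded every WT tumour for both genes. Cyp4a12a had 11231, 4016, 6903 and 8311 in IKO tumours, against 2526, 231, 444 and 3768 in WT tumours (2.78 ± 0.63, adjusted p = 0.00454). Cyp4a12b had 1896, 1009, 1488 and 1992 in IKO tumours, against 462, 40.0, 113 and 969 in WT tumours (2.61 ± 0.71, adjusted p = 0.0247). Susd4 had 226, 85.3, 135 and 142 in IKO tumours, against 44.5, 4.0, 9.92 and 67.5 in WT tumours (1.81 ± 0.41, adjusted p = 0.00437). These 3 genes did not overlap either, so that 5 genes in all were higher without overlap, as were 4.14% of all genes. Nnmt had 597, 167, 269 and 256 in IKO tumours, against 314, 13.0, 14.9 and 118 in WT tumours, and overlapped (1.81 ± 0.52, adjusted p = 0.035). Moxd1 had 44.8, 95.9, 10.9 and 2.44 in IKO tumours, against 1.53, 0, 0 and 3.62 in WT tumours, and was not called (1.51 ± 0.61, adjusted p = 0.186).

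The number of calls in IKO tumours depended on WT tumour replicate 2, the lowest WT tumour for 6 of the genes and at 0 for Moxd1. Without it 1 gene passed the threshold, Elovl3, and the difference of Hsd3b5 was 2.80 (adjusted p = 0.0818). Without WT tumour replicate 3, 3 genes were called, and Cyp4a12b and Nnmt also missed the threshold without IKO tumour replicate 1 or 4. IKO tumours still lay below IKO non-tumour liver for Cyp4a12a (-1.98 ± 0.63), Cyp4a12b (-2.03 ± 0.71), Elovl3 (-1.54 ± 0.60), Susd4 (-1.65 ± 0.41) and Nnmt (-1.65 ± 0.52), while Hsd3b5 (-1.51 ± 0.82, adjusted p = 0.152) and Moxd1 (-0.21 ± 0.61) were not called. Without IKO tumour replicate 2 Susd4 alone was called, without IKO non-tumour replicate 2 there were 3 calls, and the Elovl3 call was lost without any of 6 libraries. The difference in the tumour fall between IKO and WT was not called for any of the 7 genes (0.123% of all genes called), with 3.54 ± 0.87 for Moxd1 (adjusted p = 0.0644) and 3.32 ± 1.15 for Hsd3b5 (adjusted p = 0.301). SKO, BKO and MKO tumours did not differ from WT tumours past the threshold in any of the 7 genes (1.72%, 0.548% and 4.03% of all genes called), with wide intervals such as -2.27 to 0.92 for Hsd3b5 in SKO and -2.88 to 0.93 in BKO. The difference in the tumour fall was likewise called for none of the 7 in SKO (0.0308%), BKO (0.0308%) or MKO (0.131%).

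With age, Moxd1 was the only one of the 7 genes called in WT, from 5 to 8 months in sequencing group 1. That step called 21.7% of all genes, so 1 call among the 7 is no more than that share. From 5 to 8 months 28.4% of all genes were called in IKO and 25.8% in SKO. In sequencing group 2 the shares were 0.0386% in WT, 6.49% in MKO and 0.0771% in BKO. In WT non-tumour liver of sequencing group 1 Moxd1 had 120.3, 501, 122 and 236 normalised reads at 8 months, against 9.59, 0, 1.34 and 10.5 at 5 months. The difference was 3.35 ± 0.61 (adjusted p = 4.98e-05, 21.7% of all genes called), and 5.84 ± 1.74 (adjusted p = 0.0119) from limma-voom on the recovered reads. In sequencing group 2 it had 145, 692 and 106 at 8 months, against 1.69, 2.66 and 2.62 at 5 months. The direction and size were alike there, but few genes of that comparison passed (0.0386%) and Moxd1 did not (3.59 ± 0.87, adjusted p = 0.142). At 3 months it had 33.8, 50.6, 6.90 and 1.06 in sequencing group 1 and 46.4, 48.9 and 3.52 in sequencing group 2, while no WT library at 5 months exceeded 10.5. The remaining 6 genes were not called with age in WT, from 1 to 3 months (4.3% and 0.0925% of all genes called), 3 to 5 months (2.6% and 0.0308%) or 5 to 8 months. In MKO, Moxd1 had 231, 44.6 and 412 at 3 months, against 2.22, 0 and 0.641 at 1 month (3.52 ± 0.87, adjusted p = 0.041, 0.818% called), and Susd4 had 785, 731 and 925 at 3 months, against 206, 69.6 and 71.1 at 1 month (2.69 ± 0.62, adjusted p = 0.0277). The Moxd1 call was lost without 1 of 4 of these libraries (adjusted p up to 0.276) and the Susd4 call without 1 of 5 (adjusted p up to 0.185). Susd4 also rose in SKO, with 257, 507, 112 and 216 at 3 months, against 32.8, 125, 100.2 and 48.4 at 1 month (1.49 ± 0.41, adjusted p = 0.0179, 6.32% called), a call lost without the library labelled SKO 3 months replicate 2 (1.16, adjusted p = 0.121) and without SKO 1 month replicate 1 or 4 (adjusted p = 0.0832 and 0.0609). In IKO Cyp4a12a was higher at 8 months than at 5 months (1.62 ± 0.63, adjusted p = 0.045, 28.4% called), and the difference was 0.49 (adjusted p = 0.547) without IKO 5 months replicate 1. The other steps in age were called for none of the 7 genes in IKO (5.4% of all genes from 1 to 3 months and 1.86% from 3 to 5), SKO (1.1% from 3 to 5 months and 25.8% from 5 to 8), MKO (0% and 6.49% over the same steps) or BKO (0.116%, 0.27% and 0.0771% over the 3 steps).

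Groups were ordered by their mean on the deposited log2 scale, and the values given here are their mean normalised reads. The lowest group was a tumour group for 6 of the genes in both sequencing groups, Moxd1 being the exception. In sequencing group 1 Cyp4a12a ran from 84866 normalised reads in SKO at 3 months to 1742 in WT tumours, and the lowest SKO non-tumour group, at 1 month (54122), did not overlap the next group, IKO at 8 months. Hsd3b5 ran from 2557 in IKO at 1 month, which did not overlap the next group, WT at 1 month (1976), as 9.26% of all genes were higher in IKO without overlap at that age, to 17.0 in SKO tumours. Elovl3 ran from 2073 in SKO at 3 months to 32.7 in SKO tumours, and IKO tumours (353) stood above WT tumours (36.5) without overlap. Susd4 ran from 519 in IKO at 8 months to 15.9 in SKO tumours, Moxd1 from 245 in WT at 8 months to 0.282 in SKO at 1 month and Nnmt from 1779 in WT at 8 months to 30.2 in SKO tumours. In sequencing group 2, Cyp4a12a ran from 32659.9 in MKO at 3 months to 1899 in WT tumours, Elovl3 from 591 in MKO at 3 months to 30.2 in WT tumours, and Susd4 from 943 in MKO at 5 months to 33.5 in MKO tumours. Neighbours in these orders otherwise overlapped, apart from the step between the lowest non-tumour group and the highest tumour group of the Cyp4a12 genes in sequencing group 2, between WT at 5 months and IKO tumours for Hsd3b5, between WT and IKO at 8 months for Moxd1, and between MKO and BKO at 1 month for Susd4. Neighbours were found by sorting on these same values, so the gaps only describe the order. For Elovl3 in tumours the share of all genes without overlap was 4.14%, and for Moxd1 it was 2%. Beside these and Hsd3b5 at 1 month, no share was computed for the gaps named here.

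Some single non-tumour libraries with very low Hsd3b5 also had high summed reads of 21 measured genes known to be higher in female liver. IKO 5 months replicate 1 had 12.7 normalised reads of Hsd3b5 and a summed female-biased level of 11414.5, while replicates 2, 3 and 4 had 408, 3137 and 1650.5 of Hsd3b5 and sums of 2730.2, 2164 and 2492. The same library had 3209 normalised reads of the female-biased cytochrome Cyp2b9. SKO 8 months replicates 1 and 2 had 12.9 and 37.4 of Hsd3b5 with sums of 14456 and 16510.3, and replicates 3 and 4 had 904 and 891 with 2813 and 4934. MKO 1 month replicates 2 and 3 had 134 and 272 of Hsd3b5 with sums of 10416 and 9718, and replicate 1 had 2648 with 3655. MKO 8 months non-tumour replicate 2 had 201 of Hsd3b5 with a sum of 12545, while replicates 1 and 3 had 2142 and 486 with 4236 and 2758, and its summed macrophage markers (15410) were the highest of any library. BKO 5 months replicates 1 and 3, with 19.7 and 11.7 of Hsd3b5, had sums of 2181 and 2251, within the range of WT libraries of the same sequencing group, and SKO 1 month replicate 1, with 14.6 of Hsd3b5, had 4095. SKO 1 month replicates 2, 3 and 4, with 83.7, 104.7 and 245 of Hsd3b5, had sums of 5287, 5528 and 4502. BKO 8 months non-tumour replicate 1, with 229 of Hsd3b5, had 6316. The sums of WT non-tumour libraries lay between 2415 and 5061 (sequencing group 1) or between 1649 and 4693 (sequencing group 2). The Y-linked genes had reads in all these libraries, and the part of the female-biased genes in the results for Hsd3b5 was not tested.

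**Figure D5:**
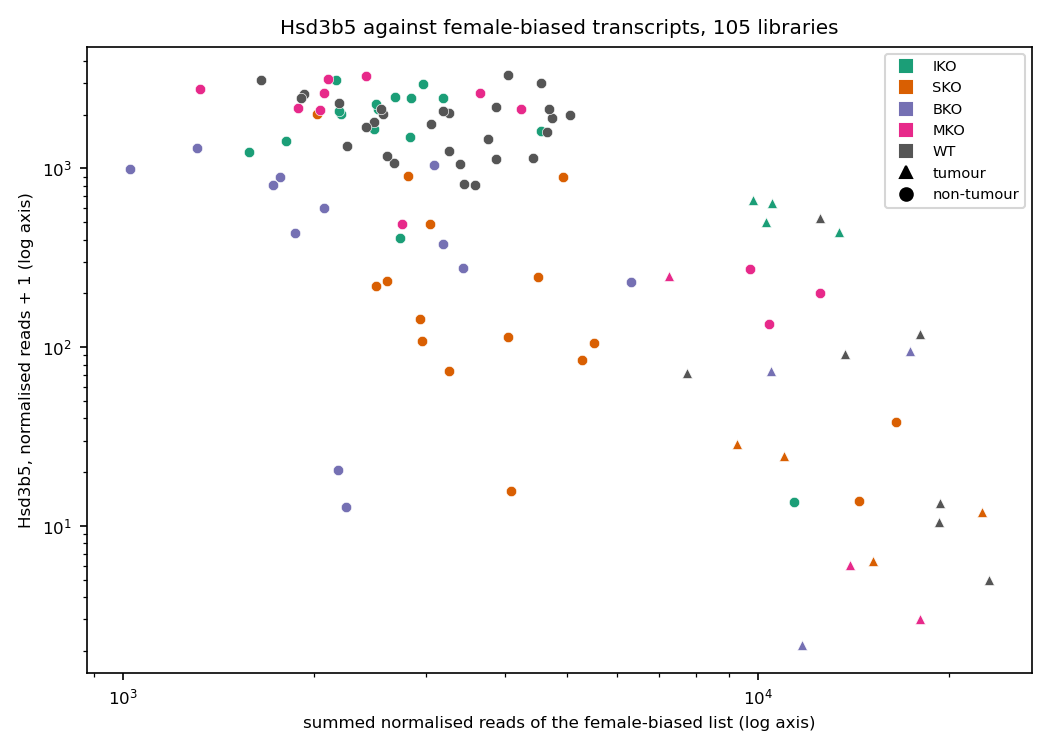
Hsd3b5 against the summed level of 21 female-biased genes, both in normalised reads on log axes (plus 1 for Hsd3b5), with 1 point per library for all libraries, by genotype and tissue. Tumours lie at higher sums than most non-tumour libraries and mostly at low Hsd3b5, with the 4 IKO tumours (442 to 666) and 1 WT tumour (525) higher, and a few non-tumour libraries, among them IKO 5 months replicate 1, SKO 8 months replicates 1 and 2 and MKO 8 months replicate 2, lie among them.

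Other genes of the growth hormone system were measured beside the 7, and their counts are to be read against the 22.9% of all genes called in SKO non-tumour liver. Of 18 measured major urinary protein genes, a multigene family of male-biased secreted proteins whose reads are hard to assign to single members, 16 were lower and none higher in SKO non-tumour liver (median -1.0), with -2.56 ± 0.25 for Mup3 (adjusted p = 3.03e-11). Of 23 other male-biased genes, 10 were lower and 1 was higher in SKO (median -0.40), among them the organic anion transporter gene Slco1a1 (-1.81 ± 0.34, adjusted p = 5.79e-05). Of 21 female-biased genes, 7 were higher and 3 lower (median 0.38), with 2.32 ± 0.37 for Cyp2c69 (adjusted p = 3.23e-06). Of 21 genes of growth hormone receptor and STAT5 signalling, 2 were higher and 3 lower in SKO, near that share, with the targeted Ptpn11 at -1.12 ± 0.08 and the receptor gene Ghr at -0.46 ± 0.09 (adjusted p = 7.84e-05). Among 22 paralogs and pathway neighbours of the 7 genes, 5 were higher and 4 lower in SKO, and the fatty acid hydroxylase Cyp4a14 rose with the Cyp4a12 pair (2.31 ± 0.42, adjusted p = 3.8e-05) while Hsd3b3 fell (-0.45 ± 0.09, adjusted p = 0.000133).

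In BKO non-tumour liver, where 19.6% of all genes were called, 11 of 18 major urinary protein genes were lower and none higher (median -0.60), 4 other male-biased genes were lower and 4 higher, and 4 female-biased genes were lower and 1 higher. The growth hormone signalling list of 21 had 2 higher and 2 lower, near that share, among them the prolactin receptor gene Prlr (-1.03 ± 0.18, adjusted p = 0.000107) and Stat5a (-0.33 ± 0.09, adjusted p = 0.00636). Of the paralogs, 3 were higher and 5 lower, with -0.94 ± 0.12 for Hsd3b7 and -1.64 ± 0.39 for Cyp4a10 (adjusted p = 3.29e-07 and 0.00291). In IKO non-tumour liver (9.04% of all genes called) no major urinary protein or female-biased gene was called, 1 other male-biased gene was higher and the signalling list had 1 higher, Stat5b (0.43 ± 0.09, adjusted p = 0.000784). In MKO (2.71% called) no major urinary protein gene was called, 1 other male-biased gene was lower, 2 female-biased genes were higher (among them Ntrk2 at 1.06 ± 0.28) and 1 signalling gene was higher. In IKO tumours against WT tumours (3.6% called), 10 major urinary protein genes and 7 other male-biased genes were higher and none lower (medians 1.63 and 0.62), 1 female-biased gene was lower, and Ghr was the single signalling gene called (0.62 ± 0.18, adjusted p = 0.0311). In WT tumours against WT non-tumour liver of sequencing group 1 (42.1% called), 17 major urinary protein genes were lower, and of the signalling list 2 were higher and 4 lower, with -1.91 ± 0.18 for Ghr, -2.01 ± 0.25 for the growth factor gene Igf1 and 1.11 ± 0.17 for Stat5b (adjusted p = 9.7e-13, 3.2e-09 and 4.87e-07).

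Markers of other cell types and zones moved with some of these results. Their counts are to be read against the shares of all genes called. These were 22.9% in SKO and 19.6% in BKO non-tumour liver, and 3.6% in IKO against WT tumours. In WT tumours against non-tumour liver of sequencing group 1 the share was 42.1%. In SKO non-tumour liver 12 of 13 macrophage markers were higher and none lower, with sums of 2729 to 9125 normalised reads, against 2234 to 8032 in WT, and 6 of 11 hepatocyte markers were lower and none higher. The macrophage sum of 2729 came from the library labelled SKO 3 months replicate 2, and the next lowest in SKO was 3626. In BKO non-tumour liver 14 of 15 pericentral genes, whose expression near the central vein is known to need β-catenin, were lower, with sums of 2671 to 18193, against 19974 to 48153 in WT, and 1 of them was at 0 in all libraries of a BKO group. There 10 of 13 stellate and fibroblast markers and 7 of 13 macrophage markers were also higher. In IKO tumours 10 of 15 pericentral genes were higher than in WT tumours, with sums of 11419 to 26075, against 4196 to 12126 in WT tumours, and no macrophage, stellate or acute phase marker was called. In WT tumours of sequencing group 1, 14 of 15 pericentral genes were lower than in non-tumour liver and 9 of 13 stellate and fibroblast markers were higher. Sums of the hepatocyte markers were also higher in these tumours, at 2063430 to 2820150 normalised reads, against 608677 to 1091160 in WT non-tumour liver at 8 months. In sequencing group 2 they were 2355230 to 3581800 in WT tumours, against 945796 to 1202840. No macrophage or hepatocyte marker was at 0 in all libraries of any group. The part of these markers in the results for the 7 genes was not tested.

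The genes whose levels ran most like each member over the non-tumour and tumour libraries together, after the mean of each sequencing group was taken out, are given here, with no p. Hsd3b5 was most like Mup3 (Pearson r = 0.94), Mup21 (0.93) and Slco1a1 (0.91). Cyp4a12a and Cyp4a12b were most like the steroid 5α-reductase gene Srd5a1 (0.91 and 0.92), with Cyp8b1 and Arl6ip1 next for both. Elovl3 was most like Arl6ip1 (0.87) and Sult2a8 (0.86), Susd4 most like Mup21 (0.89) and Mup11 (0.87), Moxd1 most like Capn8 (0.75) and C4a (0.71), and Nnmt most like Slc25a15 and Gpat4 (0.89 each). These values include the difference between tumours and non-tumour liver that most libraries share. With each group's mean taken out, Cyp4a12a and Cyp4a12b had r = 0.93 and Hsd3b5 and Susd4 r = 0.79 over all libraries. Nnmt had r between -0.04 and 0.30 with the other members over 84 non-tumour libraries and between 0.73 and 0.91 over 21 tumour libraries. Libraries share depth and tissue state, so the correlations are descriptions only.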

How the data were processed

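Total RNA came from DEN-treated mouse liver, and the labels' protocols name MAPS and sequencing on an Illumina HiSeq2000. The deposited values are per gene and do not show where in a transcript the reads lie. Per the submitters' processing notes, the tools were STAR 2.7.10a, HTSeq 2.0.2 and DESeq2 1.32.0 on GRCm38/mm10. The deposited values, made by the authors, are log2-like expression values of 12966 genes, which follow the shape of the variance-stabilising transform in DESeq2. The value of 0 reads was 3.8289 in all libraries. Inverted, 100.0% of the values came within 0.05 of a whole read number. Tests used the deposited values. Recovered reads, divided by size factors, gave levels and depths (4676444 to 20231121 reads). Reads carry no molecular identifiers, so floors cover counting error only. No column was left out, and 4 symbols that appear more than once were kept apart.

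Each sequencing group was fitted alone in R 4.3.3 with limma 3.58.1 (1 mean per group, moderation with a trend, Benjamini-Hochberg over all genes per comparison). Over 4 non-tumour stages each stage had equal weight. The filter, a mean of at least 3 on that scale, left out no gene. The fit was tested on simulated data. The members and gene lists, and the rule for named genes (up to 4 called genes per list by smallest p, and the 3 genes most like each member), were chosen with earlier results of these data known. Libraries were compared for copies, and the lowest chi-square per gene over 5460 pairs was 4.924. Alternatives were no filter, a stricter filter (mean of 6), quantile normalization, only the groups compared, the replicate number as a block, library weights, no trend in the moderation, limma-voom on recovered reads and leaving out each library; the block in a fit of only the groups compared was added after the data were seen. Replicate numbers were taken as pairing libraries where every same-number correlation was over 0.1, which held in 2 of 26 pairs of groups, BKO tumours with BKO non-tumour liver and MKO with WT non-tumour liver at 8 months. Some genes of the lists are not reported here.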

Additional observations from a re-analysis of the deposited data

Results flagged for a closer look

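Of the sets of 4 libraries tested in sequencing group 1, 10 (9.52%) held a library far from the other 3 by Dixon's criterion (a gap over 0.829 of the range). Independent sets of normally distributed values would give about 1 in 20. The sets share libraries and the genes are correlated, so that rate is no measure for them. Of the 10 sets, 2 were in IKO 5 months replicate 1, with 858 normalised reads of Cyp4a12a and 25.4 of Elovl3, both far below the rest of the group. The library labelled SKO 3 months replicate 2, which has WT-like Ptpn11, was low for Cyp4a12b (9555) and for Nnmt (551). Low values stood apart for Hsd3b5 in IKO 3 months replicate 1 (1497) and in WT 8 months non-tumour replicate 4 (1052), and for Elovl3 in IKO 1 month replicate 3 (423). A high value of Elovl3 stood apart in SKO 5 months replicate 1 (1386). Moxd1 stood apart at 1.13 in SKO 1 month replicate 3 and at 3.95 in SKO tumour replicate 3, where the other libraries had 0 reads, and both values are near the level of 3 reads. With 0 reads in the rest of a group, any value above 0 meets the criterion.

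The difference of SKO from WT differed between stages for Moxd1 (interaction from limma, adjusted p = 0.0255), which was lower in SKO at 8 months, and for Nnmt (adjusted p = 0.0182), which was higher in SKO at 1 month. For Moxd1 limma-voom gave an adjusted p of 0.628, and without SKO 8 months non-tumour replicate 1 neither was called (adjusted p = 0.0711 for Moxd1 and 0.063 for Nnmt). For Nnmt at 8 months 3 of 4 SKO libraries were below all WT libraries.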

How the results depend on the processing

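Of 71 member values called, 43 held direction and threshold in every alternative that kept all libraries, 35 held also with any library left out, and 0 reversed. The pooled non-tumour calls of SKO and BKO held throughout. With only the groups compared, calls came to 0 in BKO tumours against non-tumour liver, 0 in MKO tumours against non-tumour liver, 2 in IKO against WT tumours, 1 in the difference of the IKO tumour effect, 1 in the MKO interaction with stage, and, over single stages, 9 in BKO and 1 in MKO. With the replicate block in that smaller fit, the IKO and WT tumours gave 3 calls, MKO tumours against non-tumour liver 0, BKO single stages 7 and MKO single stages 1. For MKO against WT non-tumour liver at 8 months, with r = 0.12 to 0.30 between libraries of the same number, the block changed no call of the 7 (Hsd3b5 -1.89, adjusted p = 0.251). Apart from these groups and the BKO tumour and non-tumour groups, numbers did not meet the rule for pairs. Library weights gave 14 SKO, 9 BKO and 3 MKO single-stage calls, 1 in the MKO interaction and 2 in the difference of the IKO tumour effect. The stricter filter, which drops Moxd1, and limma-voom each left 1 call in the SKO interaction, Nnmt.

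Leaving out 1 library, calls ranged from 0 to 5 in BKO and 1 to 5 in IKO tumours against non-tumour liver, 1 to 7 in MKO, 1 to 6 in IKO against WT tumours, 0 to 1 in the differences of the IKO and MKO tumour effect, in MKO against WT tumours (1 without WT tumour replicate 2) and in the MKO interaction, 0 to 2 in the SKO interaction (0 without SKO 8 months non-tumour replicate 1), 5 to 9 over SKO stages and 1 to 3 over BKO stages. Values not called that changed sign were Moxd1 in BKO against MKO (0.17, limma-voom), and in IKO non-tumour liver Hsd3b5 (0.10, library weights) and Elovl3 (-0.042, limma-voom). With 1 library left out, IKO values ranged from -0.28 to 0.26 for Hsd3b5, -0.086 to 0.29 for Elovl3 and -0.040 to 0.21 for Susd4, Cyp4a12a in MKO from -0.11 to 0.40, and SKO against IKO from -0.12 to 0.31 for Elovl3, -0.30 to 0.012 for Moxd1 and -0.022 to 0.28 for Nnmt. The cause of these changes was not tested. Groups of 3 or 4 libraries, a scale that compresses low values and few reads of Moxd1 limit what could be called, and normalization moved the median of all genes by at most 0.06.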
